A study of Mus musculus with 42 samples.

Results

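The genes of drug and steroid metabolism described here are the cytochrome P450s, the UDP-glucuronosyltransferases (UGTs) and the glutathione S-transferases (GSTs) of the mouse colon. They were chosen by symbol: names of the form Cyp, number, letter, number, names beginning with Ugt1 or Ugt2, and cytosolic or mitochondrial Gst genes of the alpha, kappa, mu, omega, pi or theta class, with a mean of at least 10 normalized counts in the table concerned. Across 9 tables, 118 of 20462 listed genes matched the names and 83 reached that mean in at least 1 table, namely 50 P450s, 13 UGTs and 20 GSTs. Of these, 50 reached it in every table. In the table of colon segments, 65 of 101 matching genes were kept among the 13841 genes tested. The nearest genes outside the limit there were *Cyp2c67* with a mean of 9.58 and *Cyp7b1* with 9.90, and the nearest inside were *Cyp4f15* with 15.7 and *Cyp2c69* with 19.3.

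RNA was sequenced from colon crypts of C57/BL6 mice aged at least 8 weeks, and from colon tumors, in 42 libraries of 14 groups. Crypts were isolated with a chelating agent from a 5 cm stretch of colon at the cecal end (proximal) or the anal end (distal). *Mtg16*-/- mice lack the transcriptional corepressor MTG16, and T/T mice are homozygous for its P209T substitution. Both alleles are carried in the germline, in every cell, and each mutant was compared with WT littermates of its own colony. At baseline there were 2 proximal and 4 distal WT libraries, 2 proximal and 4 distal *Mtg16*-/- libraries, 2 proximal and 3 distal WT libraries from the T/T colony, and 2 proximal and 4 distal T/T libraries. After colitis, distal crypts came from mice given 2% dextran sulfate sodium (DSS) in their water for 5 days and then plain water for 4 days, with 3 WT and 4 *Mtg16*-/- libraries in one colony and 3 WT and 3 T/T libraries in the other. Tumors were taken from distal colon of the T/T colony, as 3 WT and 3 T/T libraries, after 10 mg/kg azoxymethane (AOM) and 3 cycles of 3% DSS for 4 days and water for 16 days.

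P450s are heme enzymes of the endoplasmic reticulum and mitochondria that insert oxygen into drugs, food compounds, fatty acids, sterols and vitamins. The P450s of families CYP1 to CYP3 handle mostly foreign compounds, and those of the CYP2J and CYP4 groups mostly fatty acids and eicosanoids. UGTs then join glucuronic acid, and GSTs join glutathione, to reactive groups on such molecules so that transporters can pump them out of the cell. In the gut these enzymes meet compounds from food, bile and bacteria first, and many are switched on through receptors such as AHR, PXR, CAR and the stress factor NRF2.

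The values are normalized counts, that is, reads per gene divided by a size factor of the library, and they can be compared between libraries of a table but not between tables. Reads recovered from them numbered 32231389 to 74661887 per library (median 46659625) in 38 libraries. The library names begin with a number, called the prefix here, and what it marks is not given in the sources used here. The baseline distal libraries of the T/T colony have the prefix 5094 and those after DSS 5740, so treatment and prefix cannot be told apart there. The library labelled distal *Mtg16*-/- replicate 2 had the values of proximal colon. Over 884 genes other than the enzymes that differed at least 4-fold between the WT segments, which were chosen on the WT libraries, it lay nearer to the proximal than to the distal WT mean for 91.9%. In the other 14 distal baseline libraries that share was 0.113% to 4.64%, over all tables that hold them, each on its own scale, and in the 8 proximal ones 94% to 99.7%. In the 19 libraries after DSS and from tumors it was 7.06% to 45.1%, and after DSS it differed by genotype, as given beside those results. Among the enzymes, *Cyp2c55* had 95191 normalized counts in that library and 1716, 402 and 1213 in the other libraries of its group, and each result that rests on it is given with and without it. *Cbfa2t3*, the official symbol of *Mtg16*, had 427 to 595 normalized counts in *Mtg16*-/- and 1845 to 2519 in WT crypts after DSS. It also lay below every WT library in proximal *Mtg16*-/- colon and overlapped in distal colon (424 to 1095 against 1027 to 1809), where the mutant range was 424 to 694 without replicate 2. The T/T allele is a point mutation, and T/T crypts had 1509 to 2196 in distal colon against 937 to 1040.4 in WT (adjusted p = 0.253 by limma). In such bulk samples, fewer cells of a type and less RNA per cell cannot be told apart.

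Several of the genes with the largest changes along the colon lie in the *Cyp2c* cluster of chromosome 19, and the 250 bases before the start of 5 of them are shown for that reason, from RefSeq's annotation of build GRCm38.p6. *Cyp2c55*, *Cyp2c65* and *Cyp2c66* were high in proximal colon, and *Cyp2c68* and *Cyp2c40* in distal colon. Capitals mark letters of a searched motif on either strand.
Cyp2c55, chr19:39006769-39007018, plus strand: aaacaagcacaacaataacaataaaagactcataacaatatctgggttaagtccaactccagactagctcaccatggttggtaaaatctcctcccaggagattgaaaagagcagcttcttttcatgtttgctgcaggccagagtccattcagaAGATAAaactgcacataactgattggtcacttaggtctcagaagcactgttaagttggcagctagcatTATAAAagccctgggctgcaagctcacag
Cyp2c65, chr19:39060756-39061005, plus strand: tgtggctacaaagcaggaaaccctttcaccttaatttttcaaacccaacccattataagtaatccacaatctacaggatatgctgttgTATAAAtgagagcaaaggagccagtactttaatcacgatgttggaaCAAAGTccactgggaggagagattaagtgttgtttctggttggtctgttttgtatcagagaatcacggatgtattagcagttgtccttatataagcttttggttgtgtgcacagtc
Cyp2c66, chr19:39113648-39113897, plus strand: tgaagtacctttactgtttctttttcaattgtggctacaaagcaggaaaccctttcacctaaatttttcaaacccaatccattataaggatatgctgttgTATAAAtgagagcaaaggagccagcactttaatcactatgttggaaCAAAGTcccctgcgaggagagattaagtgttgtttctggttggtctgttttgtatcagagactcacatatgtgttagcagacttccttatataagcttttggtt
Cyp2c68, chr19:39741102-39741351, minus strand: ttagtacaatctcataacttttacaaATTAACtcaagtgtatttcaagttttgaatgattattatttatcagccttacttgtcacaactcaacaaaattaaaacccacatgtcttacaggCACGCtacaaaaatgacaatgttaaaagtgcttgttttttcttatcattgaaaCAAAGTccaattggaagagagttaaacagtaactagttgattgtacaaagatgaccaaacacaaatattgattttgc
Cyp2c40, chr19:39812815-39813064, minus strand: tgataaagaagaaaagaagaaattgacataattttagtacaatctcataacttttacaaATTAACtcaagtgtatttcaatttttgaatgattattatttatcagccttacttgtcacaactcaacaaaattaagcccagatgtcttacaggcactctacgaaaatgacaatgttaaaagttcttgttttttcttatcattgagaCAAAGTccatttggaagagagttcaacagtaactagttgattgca

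The windows of *Cyp2c65* and *Cyp2c66* share a run of 48 identical bases and those of *Cyp2c68* and *Cyp2c40* a run of 53, whereas the longest run common to *Cyp2c65* and *Cyp2c68* is 11 bases. The marked letters are part of the HNF4 motif (CAAAGT), part of the HNF1 motif (GTTAAT), the motif of GATA factors (AGATAA), the core of the AHR element (GCGTG) and the TATA box (TATAAA). In 4 of the 5 windows CAAAGT is found, 116 and 104 bases before the start of *Cyp2c65* and *Cyp2c66*, and 77 and 45 bases before that of *Cyp2c68* and *Cyp2c40*. *Cyp2c55* lacks these letters and has TATAAA 29 bases before its start. Searched on both strands in all members of the segment table with an entry (55 of 65), CAAAGT occurred in 6 of 25 genes called lower and 4 of 18 called higher in distal colon, and in 5 of 12 not called, against 14.1% of all 27025 genes with such a window. GTTAAT occurred in 5 of 25, 4 of 18 and, among those not called, 0 of 12, against 7.49% of all. AGATAA occurred in 6 of 25, 3 of 18 and 0 of 12 (11.4% of all), TATAAA in 4 of 25, 5 of 18 and 0 of 12 (14.3%), and GCGTG in 3 of 25, 4 of 18 and 6 of 12 (30.9%). Of the further motifs searched, TTTATG (CDX2) occurred in 0 of 25, 1 of 18 and 1 of 12 (12.4%) and TGACNNNGC (the antioxidant element) in 1 of 25, 2 of 18 and 1 of 12 (11.5%). These are matches of letters only, and none of the motifs contains another.

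To ask how the enzymes are distributed along the healthy colon, the 4 proximal and 7 distal WT libraries of both colonies were compared. Below, proximal values are listed first for both libraries of the *Mtg16*-/- colony and then for both of the T/T colony, and distal values are given as the lowest to the highest of 7 libraries with their median. The 65 genes split sharply. The UGTs were lower in distal colon, the P450s went both ways in large steps, and most GSTs of the mu and theta classes were modestly higher in distal colon. Of the 65, 21 were called higher and 26 lower in distal colon by limma at an adjusted p of 0.05, against 20.1% and 22.0% (together 42.1%) of all genes tested. In 18 of the 65 every distal library lay above every proximal one and in 22 below (all genes 14.1% and 15.9%, together 30.0%). Among the called genes, 10 were at least 4-fold higher and 13 at least 4-fold lower. The filter kept 12 of the 65 through 1 segment only, so that their direction was fixed by it. These were *Cyp2c23*, *Cyp2c40* and *Cyp2c69*, with proximal means under 10, and *Cyp2c66*, *Cyp3a25*, *Cyp4b1*, *Cyp4f15*, *Ugt1a2*, *Ugt1a5*, *Ugt2b5*, *Ugt2b36* and *Ugt2b38*, with distal means under 10. Of the other 53, 18 were called higher and 17 lower, with 7 and 4 at least 4-fold. The counts of called genes in the segment comparison below include those fixed by the filter. Together the 65 genes took 0.701% of the normalized counts of proximal crypts and 0.361% of those of distal crypts. Their summed count was 320121 ± 22162 proximally and 160117 ± 8659 distally (means ± SD, here and in the segment comparison n = 4 and 7). Much of that drop was in 1 gene, and without *Cyp2c55* the sums were 215550.5 ± 15819.8 and 157394 ± 7386. The median log2 difference of the members was 0.12 and that of all genes 0.00475.

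**Figure D1:**
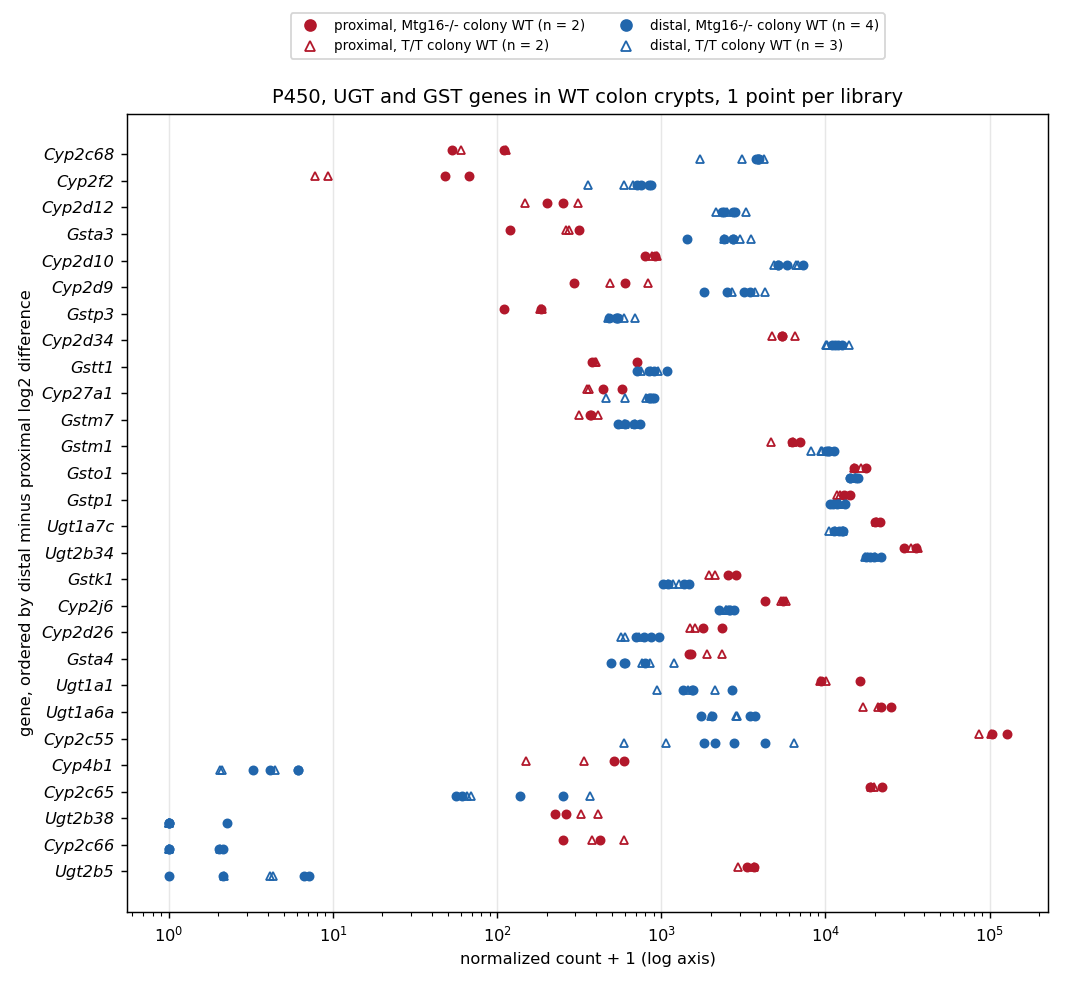
Normalized counts plus 1 (log axis) of the named genes in each WT library, proximal in red and distal in blue, filled circles for the *Mtg16*-/- colony and open triangles for the T/T colony. *Ugt2b5*, *Cyp2c66* and *Ugt2b38* sit near the left edge in distal colon, and the library values of *Gsto1* and *Gstp1* overlap between segments.

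Among the xenobiotic P450s, *Cyp2c55*, an oxidase of arachidonic and linoleic acid, was the most abundant member in proximal crypts. It had 126847, 103401, 86709.9 and 101325 in proximal colon, against 589 to 6402 with a median of 2133 in distal colon (log2 difference -5.62, standard error 0.498, adjusted p = 7.35e-07 by limma). The segments were far apart, but the distal libraries spread widely among themselves. Its neighbour *Cyp2c65* had 18583, 22071, 19624 and 18944 in proximal colon, and 55.1 to 367 with a median of 68 in distal colon (log2 difference -7.48, standard error 0.469, adjusted p = 2.52e-08 by limma). *Cyp2c66* reached 251, 425, 377 and 594 in proximal colon and lay at 0 to 1.13 with a median of 0 in distal colon (log2 difference -8.17, standard error 0.364, with no test since the filter fixed its direction). For genes this near to 0 in distal colon, the size of the log2 difference depends on the 1 added to each value. All 3 were higher in every proximal than in every distal library.

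Further along the same chromosome the kept genes went the other way. *Cyp2c67*, which lies between, averaged under 10 and was not kept. *Cyp2c68* had 51.8, 109.5, 58.9 and 112 in proximal colon, against 1719.6 to 4250.5 with a median of 3864 in distal colon (log2 difference 5.41, standard error 0.263, adjusted p = 2.03e-09 by limma). With directions fixed by the filter, *Cyp2c40* had means of 2.55 ± 2.27 and 61.4 ± 13.9, *Cyp2c69* of 3.77 ± 2.14 and 28.1 ± 11.2, and the more distant *Cyp2c23* of 7.12 ± 6.24 and 36.6 ± 14.7. In build GRCm38 the proximal group spans 39007019 to 39187072 on the plus strand, and *Cyp2c68*, *Cyp2c40* and *Cyp2c69* span 39688834 to 39886799 on the minus strand. Reads within these groups are partly ambiguous, since 62% of the 31-base words of *Cyp2c68* and 72.6% of those of *Cyp2c40* also occur in other genes. For *Cyp2c65* and *Cyp2c66* the shares are 35.4% and 33.4%, and for *Cyp2c55* 2.9%. Summed over *Cyp2c68*, *Cyp2c40* and *Cyp2c69*, which avoids splitting reads between them, the count was 89.4 ± 34.8 in proximal and 3593 ± 877 in distal colon (SD, n = 4 and 7), given with no test since the genes were grouped for being higher distally.

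**Figure D2:**
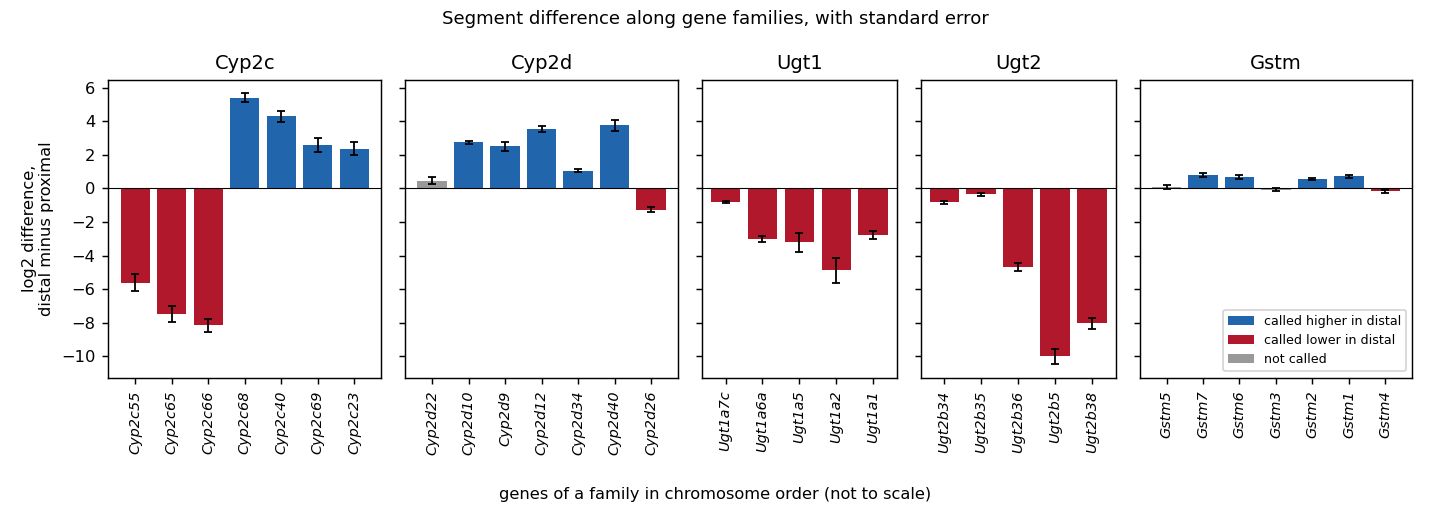
Log2 difference from proximal to distal WT colon with its standard error, for the members of 5 families in the order in which they lie on their chromosome (not to scale). Among the Cyp2c genes kept the sign changes between *Cyp2c66* and *Cyp2c68*, all Ugt1 and Ugt2 bars point down, and the Gstm bars stay within 1 log2 unit.

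The *Cyp2d* genes of chromosome 15, relatives of the human drug-metabolising CYP2D6, were mostly distal. *Cyp2d10* had 792, 912, 944 and 871 in proximal colon, against 4886 to 7257 with a median of 5837 in distal colon (log2 difference 2.75, standard error 0.111, adjusted p = 3.65e-10 by limma). *Cyp2d12* had 199.9, 251, 309 and 146 in proximal colon, against 2148 to 3265 with a median of 2499 in distal colon (log2 difference 3.56, standard error 0.17, adjusted p = 1.84e-09 by limma). *Cyp2d9*, *Cyp2d40* and *Cyp2d34* were also called higher (log2 differences 2.52, 3.76 and 1.07). *Cyp2d34* was the most abundant of the group, with 5528 ± 754 in proximal and 11585 ± 1396 in distal crypts. *Cyp2d26* went against its neighbours, with 1799, 2349, 1495 and 1600.0 in proximal colon and 568 to 962 with a median of 731 in distal colon (log2 difference -1.28, standard error 0.153, adjusted p = 1.39e-05 by limma). *Cyp2d22* did not pass the test (log2 difference 0.46, adjusted p = 0.11 by limma). Since *Cyp2d10* shares 50.2% of its 31-base words with other genes, the 7 members were also summed, giving 9685 ± 1099 in proximal and 25036 ± 2872 in distal colon (SD, n = 4 and 7).

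Of the remaining xenobiotic P450s, *Cyp2f2*, which activates naphthalene in mouse airways, was called higher in distal colon. It had 47, 65.9, 8.27 and 6.76 in proximal colon, against 359 to 869 with a median of 711 in distal colon (log2 difference 4.92, standard error 0.518, adjusted p = 4.02e-06 by limma). The proximal libraries differed between the colonies, and the log2 difference was 3.80 in the *Mtg16*-/- colony alone and 5.95 in the T/T colony alone. Colony, sex and prefix cannot be told apart among these proximal libraries. *Xist*, a transcript of the inactive X of females, had 30644 and 16360 normalized counts in the *Mtg16*-/- colony (prefix 4149). It had 2.07 and 2.90 in the T/T colony (prefix 5582). Of the CYP3A genes, *Cyp3a25* had means of 75.7 ± 62.4 and 1.46 ± 2.26, a direction fixed by the filter, and the far more abundant *Cyp3a13* fell from 6940.2 ± 2635 to 4371 ± 1112, with overlapping groups (adjusted p = 0.0339 by limma). *Cyp2s1* and *Cyp2w1*, P450s known outside the liver, did not pass the test (log2 differences 0.27 and 0.14).

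Of the 13 P450s of fatty acids and eicosanoids, 6 were called lower and 1 higher, against 22.0% and 20.1% of all genes, and of the 6 lower ones *Cyp4b1* and *Cyp4f15* were kept through proximal colon only. *Cyp4b1* had 589, 512, 149 and 336 in proximal colon, against 1.05 to 5.12 with a median of 3.15 in distal colon (log2 difference -6.57, standard error 0.427, with no test since the filter fixed its direction). *Cyp2j6*, an epoxygenase of arachidonic acid, had 4311, 5489.7, 5724 and 5381 in proximal colon and 2261 to 2790.4 with a median of 2561 in distal colon (log2 difference -1.04, standard error 0.0801, adjusted p = 1.87e-07 by limma), with no overlap. In the *Cyp4f* group, whose enzymes hydroxylate leukotrienes and long fatty acids, *Cyp4f15*, *Cyp4f40* and *Cyp4f14* were lower (log2 differences -4.78, -0.66 and -0.48) and *Cyp4f16* was higher (0.39). Of the sterol and vitamin enzymes, *Cyp27a1*, the mitochondrial sterol hydroxylase of bile acid synthesis, was higher in distal colon (442, 576, 362 and 353 in proximal colon, against 462 to 904 with a median of 840.1 in distal colon, adjusted p = 0.00387 by limma). With the name prefix as a covariate its adjusted p was 0.0849. The vitamin D hydroxylase *Cyp2r1* was called higher with overlapping groups (log2 difference 0.71), and the oxysterol hydroxylase *Cyp39a1* did not pass the test (0.16).

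The 10 UGTs kept, 5 of the Ugt1 locus of chromosome 1 and 5 of the Ugt2 cluster of chromosome 5, were called lower in distal colon. Of them 5 had means of at least 10 in both segments, and for the other 5, with distal means under 10, the filter fixed that direction. Among these 5 was *Ugt2b5*, with 3327, 3692, 3666 and 2919.7 in proximal colon, against 0 to 6.11 with a median of 3.14 in distal colon (log2 difference -10.02, standard error 0.458, with no test for that reason). *Ugt2b38* had 224, 261, 409 and 324 in proximal colon and was listed at 0 in most distal libraries, with 1.26 as the highest value. *Ugt2b5* and *Ugt2b38* share 44.9% of the 31-base words of *Ugt2b5*, so part of the reads of either may belong to the other. *Ugt2b36* had means of 251 ± 28.8 and 9.24 ± 2.92. *Ugt2b34*, the UGT with the most normalized counts, changed by less, with 30280.3, 35759, 36583 and 33048 in proximal colon, against 17474 to 21739.7 with a median of 18676 in distal colon (log2 difference -0.83, standard error 0.0774, adjusted p = 1.24e-06 by limma).

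In the Ugt1 locus, alternative first exons join a shared set of later exons. *Ugt1a1*, the enzyme that conjugates bilirubin, had 9429, 16344, 9296 and 10101 in proximal colon, against 935 to 2706 with a median of 1539 in distal colon (log2 difference -2.79, standard error 0.24, adjusted p = 5.48e-07 by limma). *Ugt1a6a*, which prefers phenols, had 21682, 25065, 20752 and 17024 in proximal colon, against 1750.3 to 3731 with a median of 2840.4 in distal colon (log2 difference -3.02, standard error 0.196, adjusted p = 3.36e-08 by limma). *Ugt1a7c* fell less, from 20588 ± 665 to 11949 ± 900.1 (log2 difference -0.79). Between 53% and 65.3% of the 31-base words of these genes lie in shared sequence. Summed over the 5 genes, the count was 53139.8 ± 6009 in proximal and 16296 ± 1776 in distal colon (SD, n = 4 and 7).

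The GSTs moved by smaller steps. *Gsta3*, which works on steroids and aflatoxin epoxide, was the exception, with 315, 119, 273 and 259.9 in proximal colon, against 1442 to 3527 with a median of 2718 in distal colon (log2 difference 3.47, standard error 0.259, adjusted p = 1.37e-07 by limma). *Gsta4*, which detoxifies lipid peroxidation products, went the opposite way (1508, 1473, 1885 and 2356 in proximal colon, against 492 to 1201 with a median of 758 in distal colon, log2 difference -1.28). *Gsta1* was also called lower (log2 difference -0.75), but nearly all its sequence words occur in other genes, and its value is uncertain. *Gstp3* had 109, 183, 186 and 181 in proximal colon and 470.2 to 688 with a median of 538 in distal colon (log2 difference 1.75, standard error 0.155, adjusted p = 7.13e-07 by limma). Of the 7 mu class genes on chromosome 3, *Gstm1*, *Gstm2*, *Gstm6* and *Gstm7* were called higher with log2 differences of 0.56 to 0.79, *Gstm4* slightly lower (-0.18), and *Gstm3* and *Gstm5* did not pass. *Gstt1* and *Gstt3* of the theta class were called higher (0.93 and 0.33). The proximal library with the highest *Gstt1* overlapped the distal range, and the adjusted p of *Gstt1* was 0.062 with the name prefix as a covariate. *Gstk1*, the mitochondrial and peroxisomal enzyme, fell from 2371 ± 413 to 1216 ± 161.

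For the most abundant GSTs no difference passed the test. *Gsto1* had 14965, 17574, 14841 and 16442 in proximal colon and 14062 to 15739.5 with a median of 15079 in distal colon (log2 difference -0.091, standard error 0.0624, adjusted p = 0.269 by limma). *Gstp1* had 14123, 13019, 11696 and 12275 in proximal colon and 10593 to 13189 with a median of 11981 in distal colon (-0.11, standard error 0.071, adjusted p = 0.249 by limma). Per kilobase of transcript, which allows levels of different genes to be compared, *Cyp2c55* led in proximal crypts with 52416 ± 8323 normalized counts per kb (SD, n = 4). *Gsto1* (20377 ± 1662) and *Gstp1* (15854 ± 1299) followed with ranges that did not overlap. In distal crypts *Gsto1* led with 19103 ± 788 (SD, n = 7), then *Gstp1* with 14711 ± 1041 and *Gstp2* with 12248 ± 1383, and the ranges of *Gstp1* and *Gstp2* overlapped. *Gstp1* and *Gstp2* share sequence, and the order between them is uncertain. *Cyp2c55* ranked 21 of 65 in distal crypts, and *Cyp2d34* was the leading P450 there with 6979 ± 841 per kb.

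Of 64 members with a value in each colony, 59 had the same direction in both. The 46 called ones among them were picked by a fit on both colonies together, which largely fixed their agreement. All 46 had 1 direction, and 36 were called in each colony alone. Whether proximal and distal libraries came from the same mice is not given, and these fits took them as independent. Only the prefix 4149 holds both segments, with 2 libraries each. Of the 22 called members with at least a 4-fold difference and a value in each colony, 21 were still called there, as were 21 with the prefix as a covariate. Markers of cell types also differed between the segments. The 5 absorptive colonocyte markers were *Slc26a3*, *Car4*, *Car1*, *Aqp8* and *Ceacam20*. Of these 1 was called lower and 4 higher in distal colon, so the fall of their sum came from 1 gene. Their summed count was 547689 to 753201 in proximal and 90609 to 151981 in distal libraries. That of the 4 goblet cell markers analysed was 208276 to 255341 and 392721 to 741209.7. The 3 T cell markers analysed summed to 1711 to 2738 and 236 to 968, and the 7 myeloid markers to 1891 to 2950.1 and 479 to 1115. The part of these shifts in the differences of the enzymes was not tested.

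Genes that feed and serve these enzymes were examined as lists of their own, against 20.1% higher and 22.0% lower among all genes. Of the 7 genes for conjugation cofactors, 5 were called lower and 1 higher in distal colon (list median -1.38). *Ugdh*, which makes UDP-glucuronic acid for the UGTs, had 33548 ± 1219 and 12925 ± 1195 normalized counts in proximal and distal colon (SD, n = 4 and 7, log2 difference -1.38). *Slc35d1*, which carries it to the UGTs, had 6563 ± 1081 and 1364 ± 187 (-2.26), and *Papss2*, which makes the sulfate donor, 42804 ± 5508 and 11341 ± 1023 (-1.91). Of 13 tested genes for other conjugating and hydrolysing enzymes, 5 were lower and none higher, led by the sulfotransferases *Sult1d1* (-1.63) and *Sult1a1* (-1.03). Of the 6 P450 redox partners, 3 were lower and 1 higher, with the P450 reductase *Por* at 7031 ± 690.4 and 4880.3 ± 833 (-0.54). Of 12 xenobiotic sensors, 5 were lower, among them *Ppara* (-1.49), the bile acid receptor *Nr1h4* (-1.23) and *Nfe2l2*, which encodes NRF2 (-0.88), and 2 were higher, including *Nr1i3*, which encodes CAR (2.77). All 4 tested AHR targets outside the members were lower, with *Ahrr* at -2.24 and *Nqo1* at -1.17. The lists overlap, here and after DSS, so their counts are not independent. *Nfe2l2* is on the sensor and AHR lists, *Nqo1* on the AHR and NRF2 lists, and *Abcc1* on the NRF2 and transporter lists. Of 12 NRF2 targets, 4 were lower, led by *Me1* (-4.11), and *Slc7a11* was higher (1.86). Of 9 transporters, 4 were lower, with *Abcb1a* at -0.76, *Abcc3* at -0.61 and *Abcg2* at -0.56, and *Abcc4* was higher (1.46).

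To ask what colitis and repair do to the enzymes, distal WT crypts of the T/T colony after DSS (3 libraries) were compared with baseline (3 libraries). *Ugt2b34*, *Ugt2b35*, 3 fatty acid P450s, *Cyp39a1* and *Cyp2d40* were lower and 3 P450s were higher. Of 60 members, 3 were called higher and 7 lower by limma, against 14.0% and 21.6% of all genes tested. In all, 16.7% of the members were called, against 35.6% of all genes. DSS replicate 3 stood apart. For each of the 7 lower genes it lay between the baseline libraries and DSS replicates 1 and 2. *Ugt2b34* had 19066, 19387 and 21429 at baseline and 3365, 2929 and 11516 after DSS (log2 difference -2.04, standard error 0.497, adjusted p = 0.0249 by limma). *Ugt2b35* had 1488, 1784 and 1909 at baseline and 392, 299.8 and 965 after DSS (log2 difference -1.83, standard error 0.42, adjusted p = 0.0221 by limma). In each, the DSS libraries lay below every baseline library. An exact permutation test of 3 against 3 cannot go below a two-sided p of 0.1, which these genes reached.

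The oxysterol hydroxylase *Cyp39a1* had 1659, 1651 and 1342 at baseline and 338, 289 and 746 after DSS (log2 difference -1.88, standard error 0.356, adjusted p = 0.0144 by limma). *Cyp2j6* had 2694, 2667 and 2729, then 1014, 901 and 1729.8 (log2 difference -1.21, standard error 0.247, adjusted p = 0.0167 by limma). *Cyp2d40* had 167, 187 and 149, then 72.7, 48.6 and 117 (log2 difference -1.15, standard error 0.338, adjusted p = 0.0395 by limma). *Cyp2j9* and *Cyp4x1*, both of low level, were also called lower (-1.20 and -1.37). Of the higher genes, *Cyp4f40* had 2637, 2397 and 2480.4 at baseline and 4372, 4931 and 4265 after DSS (log2 difference 0.85, standard error 0.111, adjusted p = 0.00814 by limma). *Cyp2w1*, a P450 known from fetal gut and colon tumors, had 118, 89.9 and 93.5, then 377, 212 and 167 (log2 difference 1.24, standard error 0.329, adjusted p = 0.03 by limma). *Cyp2f2* had 392, 726 and 627, then 1133, 817 and 1199 (log2 difference 0.88, standard error 0.274, adjusted p = 0.0473 by limma).

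Several abundant members were tested without a call. *Gstm1* (log2 difference 0.48), *Cyp4f14* (0.46), *Gsto1* (0.37), *Gstp1* (0.36), *Ugt1a7c* (0.31), *Ugt1a6a* (0.30), *Cyp2d10* (-0.33) and *Cyp2d34* (-0.56) had adjusted p-values of 0.056 to 0.267 by limma. Without DSS replicate 3, 24 members were called higher and 18 lower, against 32.2% and 34.7% of all genes. Then 15 of 19 GSTs were higher and none lower, 9 of 18 xenobiotic P450s were lower and 4 higher, and *Ugt2b34* and *Ugt2b35* were lower by 2.67 and 2.32 on the log2 scale. *Xist*, expressed from the inactive X of females, was at 30639.5 in baseline replicate 1 and below 10 in the other libraries. With *Xist* as a covariate no member and 1 gene in all was called. Without baseline replicate 2, no member and 1 gene in all was called. The trend of levels with transcript length was opposite in DSS replicates 1 and 2 to that in the other 4 libraries. With it removed, 6 members were called higher and 8 lower, against 42.7% of all genes in either direction. Untreated distal T/T replicate 1 had a trend of the same sign as DSS replicates 1 and 2. Against the other distal baseline libraries of its table it had 5776 to their 14201 to 18547 for *Ugt2b34*. For *Ugt2b35* it had 833 against 1231 to 1653, and for *Cyp39a1* 860 against 1016 to 1485. The part of this trend in the fall of these genes after DSS was not tested.

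**Figure D3:**
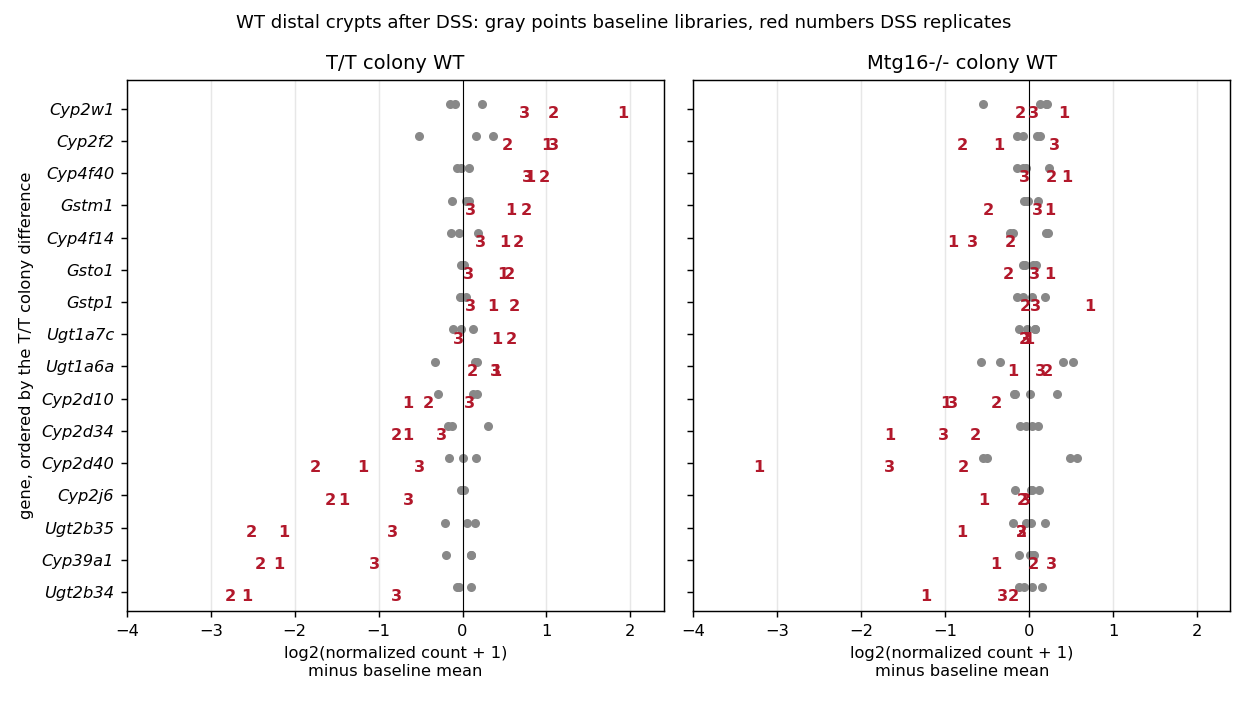
Log2 of the normalized count plus 1 of the named genes in WT distal crypts, minus the mean of the baseline libraries of the same colony. Gray points are baseline libraries and red numbers are DSS replicates. In the T/T colony (left) *Ugt2b34*, *Cyp39a1* and *Ugt2b35* fall farthest in replicates 1 and 2, and in the *Mtg16*-/- colony (right) the same genes stay nearer to baseline.

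WT crypts of the *Mtg16*-/- colony after DSS (3 libraries, prefix 6217) and at baseline (4 libraries, prefixes 4149 and 5094) lie in different tables, so their recovered reads were scaled together. Of 59 members there, none was called higher and 6 lower, against 3.71% and 1.24% (together 4.94%) of all genes, and all 6 were xenobiotic P450s. No member was higher by limma although 2 had an unadjusted p under 0.05 in that direction. *Cyp2d12* had 3040.2, 3169, 2606 and 2685 at baseline and 411, 1497 and 916 after DSS (log2 difference -1.79, standard error 0.338, adjusted p = 0.0112 by limma). *Cyp2d34* had 14071, 13430.2, 12708 and 12172, then 4146, 8364 and 6456 (log2 difference -1.11, standard error 0.206, adjusted p = 0.0104 by limma). *Cyp2d10*, *Cyp2c68*, *Cyp3a13* and *Cyp2s1* were also called lower (-0.76, -1.02, -0.98 and -0.80). Of the 17 xenobiotic P450s tested in this colony, 16 had lower means after DSS, and 50.1% of all genes had a log2 difference below 0. None of the 10 genes called in the T/T colony was called here. *Ugt2b34* had 20731, 19956, 22144 and 24128 at baseline and 9219, 19067 and 17472 after DSS, a log2 difference of -0.58 (adjusted p = 0.181 by limma).

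The difference between the colonies was tested from the fold changes and their errors, against a t distribution whose degrees of freedom came from both fits. It passed for 8 of 59 members, against 17.2% of all genes. A normal distribution, which takes the errors as known, gave 17 of 59 and 27.4%. Of the 10 genes called in the T/T colony, which were picked by their calls there, it passed for 4. These were *Cyp39a1* (T/T colony minus *Mtg16*-/- colony -1.86, adjusted p = 0.0145 from limma fold changes) and *Cyp2j6* (-0.99) of the lower ones, and *Cyp2f2* (1.16) and *Cyp4f40* (0.63) of the higher ones. It did not pass for *Ugt2b35* (-1.50, adjusted p = 0.0533 from limma fold changes), *Ugt2b34* (-1.46, 0.0926) and *Cyp2w1* (1.12, 0.0763), which passed with the normal distribution. *Cyp2f2* was 0.88 in one colony and -0.29 in the other. Of the remaining 3, *Cyp2d40* had -1.15 and -1.89, and its difference did not pass (adjusted p = 0.431 from limma fold changes), nor did those of *Cyp2j9* and *Cyp4x1*. The libraries of the colonies after DSS have different prefixes, so colony and prefix cannot be told apart. Goblet markers summed to 421807 to 525802 at baseline and 820941 to 918406 after DSS in the T/T colony, and to 575428 to 822635 and 536142 to 675341 in the other. Myeloid markers summed to 815 to 1189 and 439 to 987, and to 538 to 1198 and 1133 to 3344. Their part in the result was not tested.

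Of the related genes after DSS in the T/T colony, read against 14.0% higher and 21.6% lower among all genes, the AHR gene itself was lower (*Ahr* 755 ± 30.3 and 351 ± 191, log2 difference -1.23, SD over 3 libraries each), as was its target *Tiparp* (-2.28), the 1 of 3 tested AHR targets called. *Por*, which passes electrons to P450s, was higher (5185 ± 647 and 9361 ± 1330.1, 0.85), the 1 of 6 redox partners called. Of 13 other conjugating and hydrolysing enzymes, 5 were lower and none higher, with *Sult1d1* at -1.93, *Nat2* at -1.42 and the microsomal transferase *Mgst1* at -0.79. Of 7 cofactor genes, *Ugp2* and *Ugdh* of UDP-glucuronic acid synthesis were lower (-1.59 and -1.06). Of 12 NRF2 targets, 3 were higher, with *Hmox1* at 1.13, and 2 lower, with *Slc7a11* at -2.24. Of 8 transporters, *Abcb1a* (-1.83) and *Abcg2* (-1.64) were lower and 1 was higher. Of 12 sensors, 3 were higher and 2 lower.

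The mutants were compared with WT littermates at baseline in 4 tables, and limma called none of the members in any of them. In proximal *Mtg16*-/- colon, 6 of 63 members had an unadjusted p under 0.05, all lower (all genes 2.76% higher and 3.2% lower), where 0.0359% of all genes were called higher and 0.0287% lower (together 0.0645%). The smallest p belonged to *Cyp4b1*, at 636 and 546 in WT and 344 and 284 in the mutant (log2 difference -0.91, adjusted p = 0.352 by limma), followed by *Gstm5* (-0.55) and *Gstk1* (-0.34).

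In distal *Mtg16*-/- colon, with the 4 libraries as labelled, 7 of 67 members had an unadjusted p under 0.05, 3 higher and 4 lower (all genes 3.31% higher and 1.32% lower), where 0.239% of all genes were called, all higher. The genotypes did not overlap in 2 members that were higher and 1 that was lower, against 2.58% and 1.17% (together 3.75%) of all genes. The 2 higher ones include *Cyp4b1*, which passed the filter only through the library labelled replicate 2, so that its direction was fixed. edgeR called none and DESeq2 1. On simulated data of the segment and DSS comparisons, DESeq2 made more false calls than its nominal rate while limma and edgeR did not, so its counts here and below are less sure. *Cyp4x1*, of low level, had 31.5, 30.1, 45.4 and 32.3 in WT and 74.2, 71.2, 73.9 and 58.9 in the mutant (log2 difference 0.99, adjusted p = 0.17 by limma), and *Gstm5* (-0.39) and *Cyp27a1* (-0.45) came next. Of the 67 members, 7 reached the mean of 10 only through the library labelled replicate 2 (*Cyp2c66*, *Cyp4b1*, *Cyp4f15*, *Ugt1a2*, *Ugt2b5*, *Ugt2b36* and *Ugt2b38*).

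Without the library labelled replicate 2, limma, edgeR and DESeq2 called none of 60 members, where limma called 0.969% of all genes higher and 0.0729% lower (together 1.04%). An unadjusted p under 0.05 was reached by 1 member that was higher and 4 that were lower (all genes 4.05% higher and 1.86% lower), and the genotypes did not overlap in 1 that was higher and 2 that were lower (all genes 4.2% higher and 2.33% lower). The higher one was *Cyp4x1* (log2 difference 0.98, standard error 0.244, adjusted p = 0.169 by limma), and *Gstm5* and *Cyp27a1* stood at -0.33 and -0.33. The lower ones were *Cyp2c55*, *Cyp2d9*, *Cyp2d10* and *Cyp2d12*, named after their values were seen. *Cyp2c55* had 1873, 2854, 2193 and 4355 in WT and 1716, 402 and 1213 in the 3 remaining mutant libraries (log2 difference -1.50, standard error 0.468, adjusted p = 0.358 by limma), with 0.16 for all 4. *Cyp2d12* had 2804, 2897, 2393 and 2474 in WT and 2262, 1669 and 2315 in the mutant (log2 difference -0.35, standard error 0.133, adjusted p = 0.599 by limma), with -1.04 for all 4. *Cyp2d9* and *Cyp2d10* stood at -0.53 and -0.36, against -0.98 and -0.94 with all 4.

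In proximal T/T colon, 16 of 64 members had an unadjusted p under 0.05, 13 higher and 3 lower (all genes 6.7% higher and 5.3% lower), where 0.138% of all genes were called higher and 0.0944% lower (together 0.232%). *Cyp2c55*, the leading proximal P450, had 84290.3 and 97469 in WT and 132707 and 152104 in T/T (log2 difference 0.65, adjusted p = 0.143 by limma). The distal gene *Cyp2d10* had 918 and 838 in WT, 537 and 447 in T/T (-0.84, adjusted p = 0.11 by limma), and *Cyp2w1* 82.4 and 96.7 in WT, 179 and 237 in T/T (1.20). With 2 libraries per genotype the groups did not overlap for these genes, and they did not overlap for 45.5% of all genes either. In distal T/T colon, 3 of 58 had such a p, all lower (all genes 3% higher and 1.65% lower), where 0.0369% of all genes were called, and neither edgeR nor DESeq2 called any. These were *Gstm5* (-0.27), *Cyp2d9* (-0.62) and *Cyp2d10* (-0.40). Differences between the segments within a mutant, and between the mutants in distal colon, passed for no member by a test on the limma fold changes (0.0149% to 0.648% of all genes). Without the library labelled distal *Mtg16*-/- replicate 2, none of 53 members passed between the segments of *Mtg16*-/- colon (0.323% of all genes) and none of 58 between the mutants (0.141%).

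After DSS, the mutants were compared with their WT littermates, and limma called 1 member in *Mtg16*-/- and none in T/T. Of the members, 47 of 65 in *Mtg16*-/- and 49 of 61 in T/T had a log2 difference below 0, against 50.4% and 46.5% of all genes (medians of the members -0.27 and -0.41, all genes -0.00235 and 0.032). The 7 *Cyp2d* members, which share sequence and were singled out after their values were seen, were among these in both mutants, and limma called none of them without a block. The genotypes after DSS also differed in how near other genes lay to their proximal level. Of the 880 genes outside the members that differed at least 4-fold between the WT segments, 11.7% to 12.6% lay nearer to the proximal mean in WT and 26.1% to 33.5% in *Mtg16*-/- libraries, and 7.5% to 16.7% in WT and 19.1% to 32.2% in T/T libraries, without overlap in either colony. The *Cyp2d* genes other than *Cyp2d26* and *Cyp2d22* are higher in distal and *Cyp2c55* and *Cyp2c65* in proximal WT colon (above). In *Mtg16*-/- after DSS, *Cyp2c55* and *Cyp2c65* had log2 differences of 1.55 and 2.17. *Ugt2b35*, *Ugt2b34*, *Ugt1a7c*, *Cyp2d26* and *Cyp3a13*, also higher in proximal WT colon, had -1.16, -0.66, -0.48, -0.80 and -0.56. The part of the shift of other genes toward proximal levels in the differences of the enzymes between genotypes was not tested. In *Mtg16*-/- crypts the 1 of 65 members called was *Ugt2b35*, where 0.38% of all genes were called higher and 0.249% lower (together 0.629%). It had 1026, 1691 and 1701 in WT and 577, 697, 669.9 and 621 in *Mtg16*-/- (log2 difference -1.16, standard error 0.207, adjusted p = 0.0441 by limma), with no overlap. The call was lost without WT replicate 2 or 3 or without any 1 of the *Mtg16*-/- libraries (adjusted p = 0.0552 to 0.142 by limma) and with *Xist* as a covariate (0.147). It was kept without WT replicate 1 (adjusted p = 0.0102 by limma) and by edgeR (0.0348). Libraries with the same replicate number deviated together in this comparison, so the numbers were also taken as pairs. The labels name no pairs, and these were chosen from the same values, so calls with the block are no test of genotype. In pairs 1 and 2 *Xist* was 3621 and 32425 in WT and 0 and 1.84 in *Mtg16*-/-. With the pairs as a block, in which *Mtg16*-/- replicate 4 has no partner and no weight, 3 members were called higher and 16 lower, against 5.72% and 3.06% (together 8.78%) of all genes. The lower ones included *Cyp2d22* (-1.96), *Cyp2d12* (-1.69), *Cyp2f2* (-1.41), *Cyp2d10* (-1.17), *Cyp2d26* (-0.87), *Cyp3a13* (-0.70) and *Ugt2b35* (-1.15). The higher ones were *Cyp2c65* (2.61), *Cyp2c55* (1.95) and *Cyp4f18* (2.30), a leukotriene hydroxylase of leukocytes. These members of the paired fit were chosen after their values were seen. Without the block, *Cyp2d22* had 422, 889 and 563 in WT and 157, 109.5, 206 and 253 in *Mtg16*-/- (log2 difference -1.78, adjusted p = 0.056 by limma).

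In T/T crypts after DSS none of 61 members was called by limma or edgeR, DESeq2, with its excess of false calls on simulated data, called 6 lower, and 19 had an unadjusted p under 0.05, of which 18 were lower (all genes 3.75% higher and 5.02% lower). No gene of the whole table was called (0.0%), and 1197 genes had such a p. *Cyp2d10* had 4487, 5271 and 7298 in WT and 1155, 2100.3 and 1668 in T/T (log2 difference -1.80, standard error 0.288, adjusted p = 0.165 by limma). *Cyp2f2* had 1232, 880.5 and 1266 in WT, 159, 418 and 232 in T/T (-2.15), and *Cyp2d22* 526, 719 and 987 in WT, 205, 278 and 183 in T/T (-1.72). The genotypes did not overlap for these 3 genes, as for 8.02% of all genes in that direction. The difference between the effects of the alleles passed for none of 60 members (0.0887% of all genes). Side by side, the log2 differences in *Mtg16*-/- and T/T were -1.78 and -1.72 for *Cyp2d22*, -0.80 and -1.09 for *Cyp2d26*, and 2.17 and 1.26 for *Cyp2c65*.

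Cell type markers differed between genotypes after DSS as well. The 7 myeloid markers summed to 1267 to 3725 in WT and 5260.0 to 15977 in *Mtg16*-/- crypts, and to 474 to 1073 and 1436 to 2296 in WT and T/T crypts. The 4 goblet markers summed to 866789 to 998332 in WT and 496654 to 608363 in T/T, without overlap, and to 597189 to 749095 and 495233 to 803384 in WT and *Mtg16*-/-, with overlap. Their part in the differences of the enzymes was not tested.

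**Figure D4:**
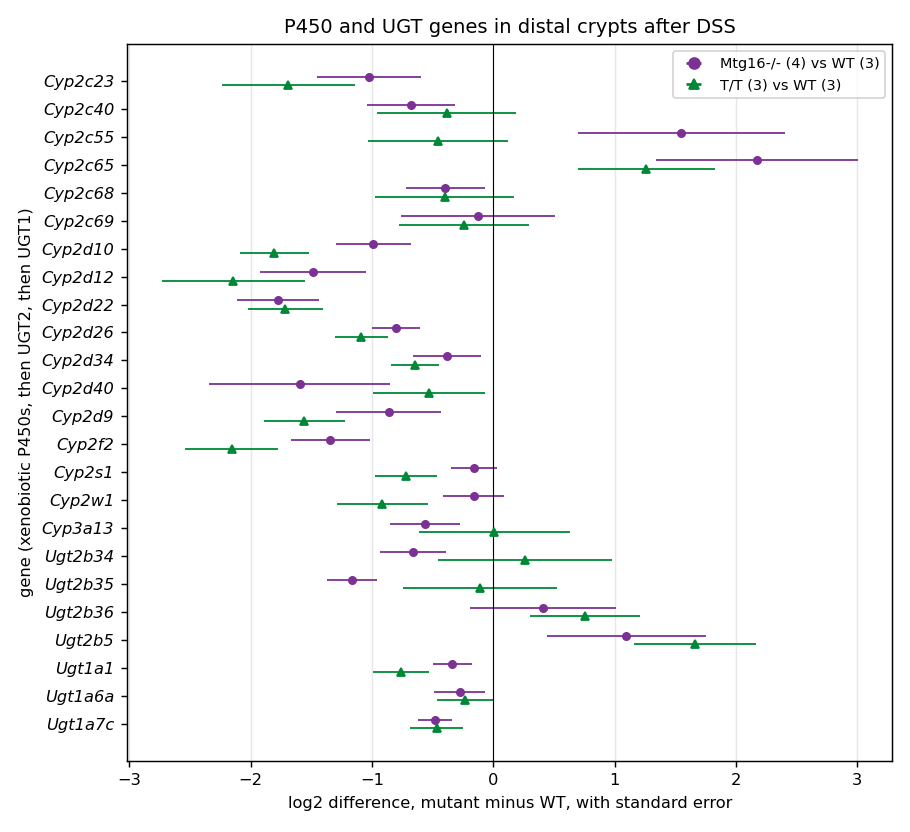
Log2 difference from WT to mutant in distal crypts after DSS with its standard error, for xenobiotic P450s and UGTs tested in both mutants. Circles stand for *Mtg16*-/- and triangles for T/T, and the points of *Cyp2d22*, *Cyp2d10*, *Cyp2f2* and *Cyp2d26* lie to the left of 0 in both while those of *Cyp2c65* lie to the right.

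In AOM/DSS tumors, limma, edgeR and DESeq2 called none of 64 members between T/T and WT, 3 had an unadjusted p under 0.05, and no gene of the whole table was called (0.0%, with 392 genes at such a p). *Cyp2c65* had 19, 22 and 37.3 in WT and 63.1, 40.8 and 61.2 in T/T tumors (log2 difference 1.08, adjusted p = 0.998 by limma). *Ugt2b35* had 480.3, 679 and 244 in WT, 809, 806 and 775 in T/T (0.89), and *Cyp2c68* 553, 124 and 253 in WT, 754, 763 and 465 in T/T (1.31). The tumors hold tissue other than epithelium, with fibroblast markers summing to 127907 to 179215 in WT and 128636 to 175165 in T/T.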

How the data were processed

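The authors trimmed paired-end reads with fastp 0.20.0, assigned them with Salmon 1.3.0 to GENCODE transcripts of mouse build mm10 (GRCm38) and summed them per gene. The signal values that the authors deposited are normalized counts, rounded estimated counts divided by 1 DESeq2 size factor per library, in 9 tables scaled separately. Deposited fold changes and p-values were not used. Whole reads were recovered in 7 tables (within 0.01 of a whole number). The test was limma 3.58.1 with a mean-variance trend (R 4.3.3) on the log2 scale after adding 1, for genes averaging 10 or more, with Benjamini-Hochberg adjustment over the table at 0.05. Fold changes are on that scale, which understates low genes. Alternatives on recovered reads used edgeR 4.0.16 or DESeq2 1.42.0, and calculations were tested on simulated data, where DESeq2 exceeded its nominal rate of false calls. Differences between colonies after DSS used fold changes and standard errors with a t distribution (Satterthwaite degrees of freedom, chosen after the data were seen), and those between mutants or segments a normal distribution, with no member called by either. The members, roles, markers and lists were chosen with earlier results of these data known. Genes named are up to 12 called members per direction with the largest change and a mean of at least 100, the 3 most abundant P450s, UGTs and GSTs, up to 5 called members per genotype comparison (or the 3 smallest p) and up to 3 called genes per direction of each related list. Members named beyond this rule were chosen after their values were seen. The labels number the libraries of a group without naming the mouse, so p-values measure the spread between these libraries, which may be technical. Same-numbered libraries were checked by the correlation of their deviations from group means. It was 0.317 to 0.554 for the 3 pairs of *Mtg16*-/- and WT crypts after DSS, treated as pairs from this check alone. Proximal and distal WT libraries of the prefix 4149 have different numbers, so the check did not compare them with each other.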

Additional observations from a re-analysis of the deposited data

Results flagged for a closer look

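Among 120 groups of 4 to 10 libraries tested for a library far from the others, 18 were found, and chance gives about 1 in 20. Of these, 11 were in the library labelled distal *Mtg16*-/- replicate 2, which had the values of proximal colon, for genes that differ between the segments. Its normalized counts stood apart from those of the other 3 libraries for *Cyp2c55* (95191 against 402 to 1716), *Cyp2c65* (15534 against 35 to 129.8), *Cyp2c66* (272 against 0 to 1.16), *Cyp2d26* (2514 against 521 to 849), *Cyp4b1* (466 against 7.58 to 17.2), *Gstt1* (489.8 against 807 to 828), *Ugt1a1* (13349 against 977 to 2043), *Ugt1a6a* (17569.5 against 1711 to 2301), *Ugt2b34* (28720.2 against 17725 to 19378), *Ugt2b38* (287 against 0) and *Ugt2b5* (2976 against 0.818 to 12.7). *Gstp3* had 109 normalized counts in proximal WT replicate 1 of the *Mtg16*-/- colony, against 181 to 186 in the rest of its group. *Gstt1* had 709 normalized counts in proximal WT replicate 1 of the *Mtg16*-/- colony, against 377 to 398 in the rest of its group. *Ugt1a1* had 16344 normalized counts in proximal WT replicate 2 of the *Mtg16*-/- colony, against 9296 to 10101 in the rest of its group. *Ugt2b38* had 1.26 in distal WT replicate 3 of the *Mtg16*-/- colony and was listed at 0 in the other 6 libraries of its group. *Cyp4x1* had 45.4 normalized counts in the table with *Mtg16*-/- in distal WT replicate 3 of the *Mtg16*-/- colony, against 30.1 to 32.3 in the rest of its group. *Ugt1a1* had 2768 normalized counts in the table with *Mtg16*-/- in distal WT replicate 4 of the *Mtg16*-/- colony, against 1388 to 1607 in the rest of its group. *Ugt2b38* had 1.3 in the table with *Mtg16*-/- in distal WT replicate 3 of the *Mtg16*-/- colony and was listed at 0 in the other 3 libraries of its group.

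The change from baseline to DSS differed between WT crypts of the colonies by a test on the limma fold changes and their errors with a t distribution, adjusted over all genes, for 8 of 59 members (17.2% of all genes). As log2 differences (T/T colony minus *Mtg16*-/- colony), they were lower for *Cyp39a1* (-1.86) and *Cyp2j6* (-0.99). They were higher for *Cyp2f2* (1.16), *Cyp4f14* (1.07), *Cyp2s1* (0.96), *Cyp2d26* (0.95), *Cyp4f40* (0.63) and *Cyp4f16* (0.58). Adjusted p-values ran from 0.00969 to 0.0403. The libraries of the colonies after DSS differ in their name prefix, and colony and prefix cannot be told apart.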

How the results depend on the processing

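Over all alternatives, 1081 values of named members kept their direction and their side of the threshold, 71 lost a call, 21 gained one and 10 reversed. In the segment comparison leaving out each library gave 20 to 25 higher and 23 to 25 lower. The calls of *Gstt1* and *Cyp27a1* were lost with the name prefix as a covariate, and *Gstp1*, which was not called, reversed to 0.015 in the T/T colony alone. After DSS in the T/T colony, leaving out each library gave 0 to 24 higher and 0 to 18 lower. With *Xist* as a covariate the counts were 0 and 0, with edgeR 5 higher, with DESeq2 5 higher and 12 lower, with the length trend removed (added after the data were seen) 6 higher, and in the *Mtg16*-/- colony 0 higher, also with the length trend removed. There *Cyp2f2* reversed to -0.29 and -0.32 with the trend removed, *Gstm1* to -0.048 and -0.10, *Cyp4f14* to -0.60 and -0.58, *Ugt1a7c* to -0.032, and, with the trend removed, *Gsto1* to -0.036 and *Cyp39a1* to 0.00807. The length removal moved the median of all genes to 0.13 in the T/T colony. With a normal distribution the DSS change differed between the colonies for 17 members. The cause of these shifts was not tested.

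With a replicate block, *Mtg16*-/- against WT after DSS gave 3 higher and 16 lower, with pairs chosen from these same values. Proximal T/T against WT, with 2 pairs, gave 2 higher and 1 lower. In the other comparisons the block left the counts of members within 1.5 times, including 2 higher and 6 lower after DSS in WT, and the numbers are not pairs there by the check. DESeq2 made more false calls than its nominal rate on simulated data. For *Mtg16*-/- after DSS it gave 1 higher and 8 lower, the *Xist* covariate 0 lower, the length trend removed 2 lower, and leaving out each library 0 to 1 lower. DESeq2 also gave 1 higher in distal *Mtg16*-/- colon (0 without the library labelled replicate 2) and 6 lower in T/T colon after DSS. Leaving out each library gave 0 calls in the remaining comparisons, and in distal *Mtg16*-/- colon this holds with and without the library labelled replicate 2, also with a block (added after the data were seen). edgeR and DESeq2 were not run for the proximal mutant tables, and the *Xist* covariate was not run where *Xist* was present in all libraries or in none. With 2 to 4 libraries per genotype, differences smaller than the spread between libraries could not be called.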
